A study of Mus musculus with 16 samples.

Results

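The 84 genes described here encode the proteins of the cytosolic ribosome and a few close relatives, out of 32285 genes measured in single nuclei of the mouse hippocampus. They were chosen by symbol (Rpl or Rps with a number, Rplp0 to Rplp2, and Rpsa, without pseudogenes and S6 kinases) and by a minimum of 200 unique molecular identifiers (UMIs, the counted transcript molecules) summed over the nuclei of all libraries. By role they are 43 large subunit proteins, 31 small subunit proteins, 3 P-stalk proteins, 6 paralogs (Rpl22l1, Rps27l, Rpl3l, Rpl7l1, Rpl36al and Rps27rt) and Rps19bp1, which fits the symbol pattern but is not a ribosomal protein. The members nearest the minimum were Rpl3l with 667 and Rps27rt with 846 UMIs, and below it were Rpl39l with 22 and Rpl10l with 3.

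The 16 libraries came from female mice aged 9 months, with 4 libraries in each of 4 groups, which cross the Ch25h genotype (Ch25h+/+ or Ch25h-/-) with tau status (Tau+ or Tau-). Ch25h encodes cholesterol 25-hydroxylase, which makes an oxysterol in activated immune cells, and the series asks how this enzyme relates to tau pathology. The labels name neither the tau line nor its promoter, give no batch, and do not say whether each library is 1 animal or a pool. Over all nuclei Ch25h did not separate the genotypes, with 94 Ch25h UMIs in Ch25h+/+ Tau+, 38 in Ch25h+/+ Tau-, 96 in Ch25h-/- Tau+ and 75 in Ch25h-/- Tau-. In microglia Ch25h had 33 UMIs in Ch25h+/+ Tau+ (2.76 to 20.5 CPM, UMIs scaled to equal totals), 7 in Ch25h-/- Tau+ (1.01 to 4.97 CPM) and 0 in both Tau- groups. Whether these reads lie outside the deleted part is not stated, so every genotype below is the label of the library.

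Each ribosome carries nearly all of these proteins in equal amounts, and their genes are transcribed together in all cell types. Most of their mRNAs begin with a run of pyrimidines, the 5′ terminal oligopyrimidine (TOP) motif, through which their translation is set by growth signalling. Mature mRNAs leave the nucleus for the cytoplasm, where they are abundant, including in neuronal processes.

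The start sites are shown because the TOP motif lies at the start of the mRNA. RefSeq start sites (GRCm38.p6) matched 64 of the 84 genes, and the 30-base windows centred on them are printed 5′ to 3′ on the gene's strand, with pyrimidine runs of 6 or more bases in capitals. Rps9 had the largest excess in microglia and Rps10 was called in a genotype comparison. Rplp2 and Rpl13a are canonical members with long runs. Rpl26, called in the other genotype comparison, and Rpl7l1, a paralog, had no such run in the window.
Rps9, chr7:3704026-3704055, plus strand: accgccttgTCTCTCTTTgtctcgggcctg
Rps10, chr17:27635230-27635259, minus strand: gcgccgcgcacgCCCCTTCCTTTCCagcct
Rplp2, chr7:141447636-141447665, plus strand: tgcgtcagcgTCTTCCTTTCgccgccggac
Rpl13a, chr7:45128731-45128760, minus strand: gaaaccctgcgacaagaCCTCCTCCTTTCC
Rpl26, chr11:68901551-68901580, plus strand: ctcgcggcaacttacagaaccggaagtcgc
Rpl7l1, chr17:46782642-46782671, minus strand: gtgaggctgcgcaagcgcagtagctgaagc

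Such a run was present on the sense strand in 35 of 64 windows (54.7%), against 29.1% of all 27025 RefSeq start windows of the same length. On the antisense strand the order was the opposite, with 5 of 64 (7.81%) against 32.1%. The letters CTTTC, which can lie within such a run, were present on the sense strand in 16 of 64 windows (25.0%) against 3.97% of all windows. CCGGAAG, searched on both strands of the 300 bases around the start, was in 24 of 64 members (37.5%) and 9.12% of all promoters. A match in this window is a description of the letters and not a binding site. The windows depend on the annotation: the first RefSeq start listed for each gene was used, and 23 of 64 windows held the 5′ end that GENCODE M21 gives the gene. None of the 6 printed windows did. The RefSeq start lay upstream of that end for Rpl26 (at -17 bases) and 16 bases inside the gene for Rpl13a and Rpl7l1, 48 for Rps9, 281 for Rplp2 and 1425 for Rps10. No run in a window says only that these letters are not in it.

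Depth was 7601 to 10567 nuclei per library, with a median of 3643 to 6253 UMIs per nucleus and 0.0826 to 0.449% mitochondrial UMIs. The highest mitochondrial share was in Ch25h+/+ Tau- replicate 3, which also stands apart below. Clusters were named from marker genes, so that each class name below means nuclei like that type, with the ribosomal protein genes left out of the clustering, and 124103 of 136828 nuclei received a class. Dentate gyrus (DG) granule neurons (669 to 2617 nuclei per library) and CA pyramidal neurons (741 to 1620) were found in every library, as the labelled tissue requires. Of 134477 distinct barcodes, 2321 occurred in more than 1 library.

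Ribosomal protein genes made up little of the RNA of nuclei. They took 0.173 to 0.246% of the UMIs of nuclei per library (median 0.201%, n = 16), or 78867 to 130593 UMIs. Among barcodes under 100 UMIs, too few for a nucleus by the threshold used, the same genes took 1.15 to 2.19% (median 1.45%). The nuclear RNA Malat1 was also higher in these low barcodes, with a median of 14.5% of UMIs against 8.18% in nuclei, and what the low barcodes hold was not tested. The share was 5.72 to 8.87 times higher in these low barcodes, in 16 of 16 libraries.

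The share also depended on the depth of the barcode. It was 1.30% (median over libraries) below 50 UMIs, 1.54% at 50 to under 100, 2.15% at 100 to under 250 and 4.48% at 250 to under 500. In nuclei it went down with depth, from 0.568% at 500 to under 1000 UMIs to 0.411% at 1000 to under 2000, 0.296% at 2000 to under 4000, 0.225% at 4000 to under 8000 and 0.153% at 8000 or more. Every depth range of nuclei thus lay below every range of barcodes under 500 UMIs. The filters for nuclei applied only from 500 UMIs, so the step there is also a change of filter.

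Gene by gene, 83 of the 84 were lower in nuclei than in low barcodes at an adjusted p under 0.05 (edgeR's quasi-likelihood test with the library as a block, Benjamini-Hochberg over all genes), where 40.0% of all 19018 genes tested were lower. The median log2 difference was -2.79 for the members and 0.04 for all genes tested. As a ratio of UMI counts scaled to equal library totals (CPM), the median member stood at 0.122 in nuclei against low barcodes, compared with 0.918 for all genes with at least 200 UMIs. The minimum of 200 UMIs was set in nuclei, so the comparison describes genes that nuclei contain.

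**Figure D1:**
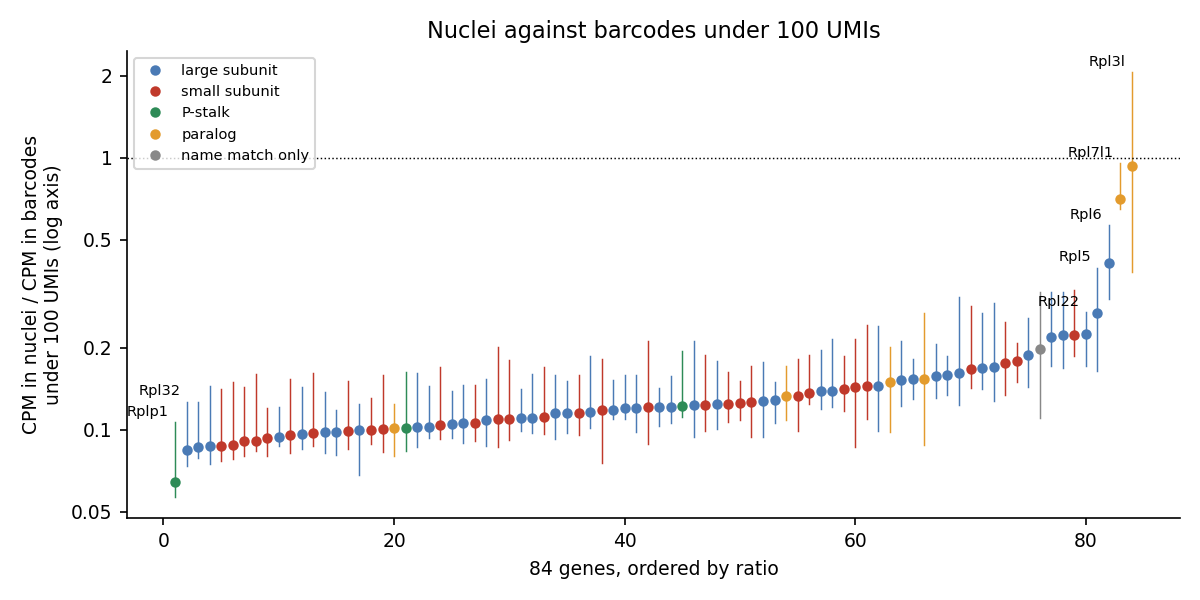
Ratio of CPM in nuclei to CPM in barcodes under 100 UMIs for each of the 84 genes (points, log axis, coloured by role), with lines from the lowest to the highest of 16 libraries. The median member lies at 0.122, Rplp1 lowest at 0.0645, and Rpl7l1 (0.704) and Rpl3l (0.934) stand apart at the top.

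P-stalk proteins form the arm of the large subunit that recruits translation factors. Rplp1 had the lowest ratio of all members, 0.0645, with 26.2 CPM in nuclei and 407 CPM in low barcodes (log2 difference -3.61, SE 0.07, adjusted p = 8.2e-20). Its partners Rplp0 and Rplp2 had ratios of 0.102 and 0.123. All 3 were lower in nuclei in 16 of 16 libraries.

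Small subunit genes had a median ratio of 0.116 (31 genes). Rps29 stood near the lower end at 0.0881. Rps4x (0.0989), Rps27a (0.10), which is made as a fusion to ubiquitin, Rpsa (0.101), also known as the laminin receptor, and Rps3 (0.104), which lies at the mRNA entry channel, were close to each other. Rps14 (0.110), Rps6 (0.122), the substrate of S6 kinase, Rps2 (0.133) and Rps27 (0.179) were higher.

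Large subunit genes had ratios of 0.0847 to 0.412 (median 0.122, 43 genes). Rpl32 (0.0847), Rpl34 (0.0868) and Rpl37 (0.0872) were the lowest. Rpl13a (0.0980), Rpl41 (0.0984), which encodes the shortest ribosomal protein, Rpl3 (0.111), Rpl38 (0.115), Rpl11 (0.122) and Rpl10 (0.139) lay around the median. The upper end was formed by Rpl22 (0.226), Rpl5 (0.269), which carries ribosomal RNA together with Rpl11, and Rpl6 (0.412). Rpl6 was also the most abundant member in nuclei, at 96.3 CPM, but not in low barcodes, where it had 234 CPM against 543 CPM for Rpl13.

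Among the paralogs, Rpl22l1 (0.133), Rps27l (0.150) and Rps27rt (0.154) resembled the canonical genes. Rpl7l1, a nucleolar relative of Rpl7, had a ratio of 0.704 (25.9 against 36.8 CPM), with a log2 difference of -0.28 (SE 0.05, adjusted p = 1.1e-05). Rpl3l, the striated muscle form of Rpl3, was the member that was not called: 0.709 CPM in nuclei and 0.759 CPM in low barcodes (log2 difference 0.10, SE 0.22, adjusted p = 0.723), from 43 UMIs in the low barcodes. In astrocytes it reached a median of 3.69 CPM, and it had a median of 0 in microglia and oligodendrocytes.

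Across the 84 genes the ratio had little relation to the length of the gene (Spearman rho 0.13 with its span and 0.14 with its intron length), and levels in nuclei and low barcodes ranked alike (rho 0.81). These are descriptions across genes that share their libraries. In the annotation (GENCODE M21, GRCm38), 30 of the 84 genes contain a small nucleolar RNA and 23 overlap another gene.

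Other lists of translation genes had higher median ratios than the members. Ribosomal proteins under other names (3 genes) had a median ratio of 0.153 and the noncoding hosts of small nucleolar RNAs (9 genes) 0.172. Translation factors with TOP mRNAs (15 genes) stood at 0.352 and mitochondrial ribosomal proteins (78 genes) at 0.374. Ribosome biogenesis factors (35 genes) had 0.799, and regulators of TOP mRNA translation (10 genes) 1.081.

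Among the 8 classes with enough nuclei in every library to be compared, microglia carried the largest share of ribosomal protein UMIs. Mural cells, with 402 nuclei in all and as few as 2 in a library, had 0.524% when summed over libraries and were not compared by library. The share of microglia was 0.436 to 0.565% (lowest and highest of 16 libraries, median 0.486%). Oligodendrocytes had 0.313 to 0.525% (median 0.362%), astrocytes 0.209 to 0.312% (0.238%) and oligodendrocyte precursors 0.213 to 0.262% (0.230%). Neurons were lower, with medians of 0.209% in DG granule neurons, 0.187% in inhibitory neurons, 0.168% in other excitatory neurons and 0.166% in CA pyramidal neurons. Microglia exceeded each of the other 7 classes in 16 of 16 libraries, by 1.39 times (oligodendrocytes) to 2.99 times (CA pyramidal neurons) in the median library. The neighbours astrocytes and precursors (10 of 16 libraries), precursors and granule neurons (12 of 16), inhibitory and other excitatory neurons (13 of 16) and other excitatory and CA neurons (11 of 16) were not separated in all libraries. No test was made, since classes were formed on the same nuclei.

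**Figure D2:**
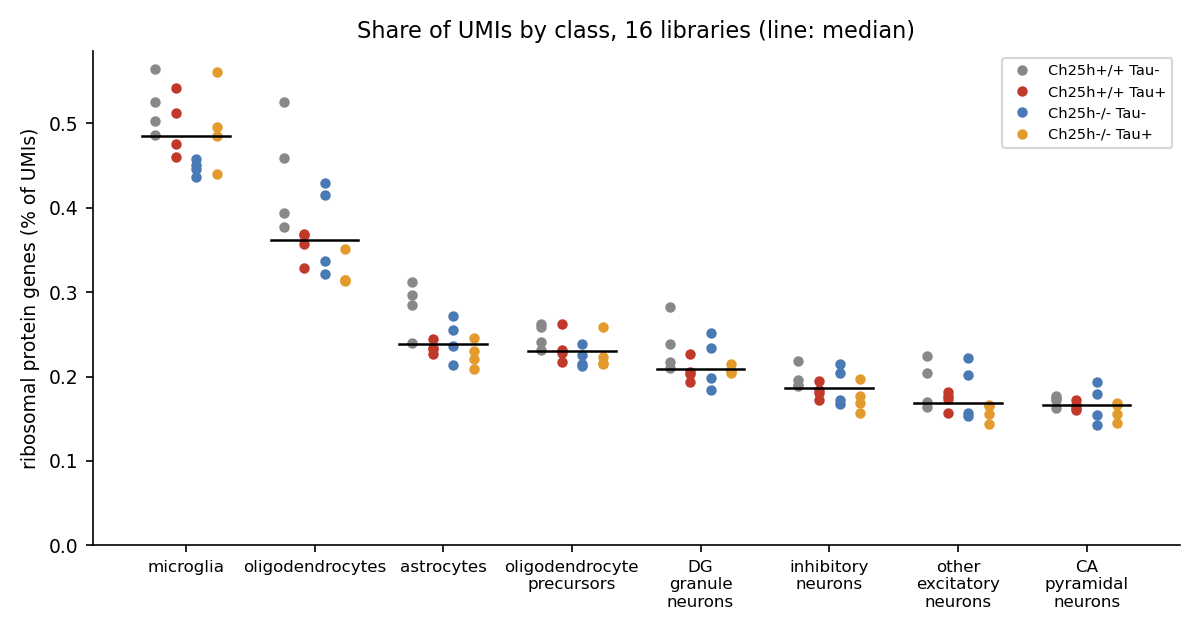
Percentage of UMIs from the 84 genes in each class, 1 point per library coloured by group, with the median of 16 libraries as a line. Microglia (median 0.486%) and oligodendrocytes (0.362%) lie above the other classes.

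Classes differ in depth, from a median of 1449 UMIs per nucleus in microglia to 9526 in CA pyramidal neurons, and the order changed when nuclei of the same range of depth were compared. The ranges do not match depth fully: at 2000 to under 4000 UMIs the median was 2344 UMIs in microglia, 2402 in oligodendrocytes, 2719 in astrocytes, 3286 in granule neurons and 3420 in CA pyramidal neurons. In this range, microglia still had the highest share (median 0.400%), and exceeded CA pyramidal neurons in 12 of 12 libraries (1.45 times) and oligodendrocytes in 12 of 13 (1.40 times). Oligodendrocytes, at 0.298%, exceeded CA pyramidal neurons (0.268%) in 9 of 15 libraries and inhibitory neurons (0.295%) in 8 of 15. Astrocytes, which exceeded granule neurons in 16 of 16 libraries without regard to depth, were below them in this range in 16 of 16 (0.238 against 0.290%).

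**Figure D3:**
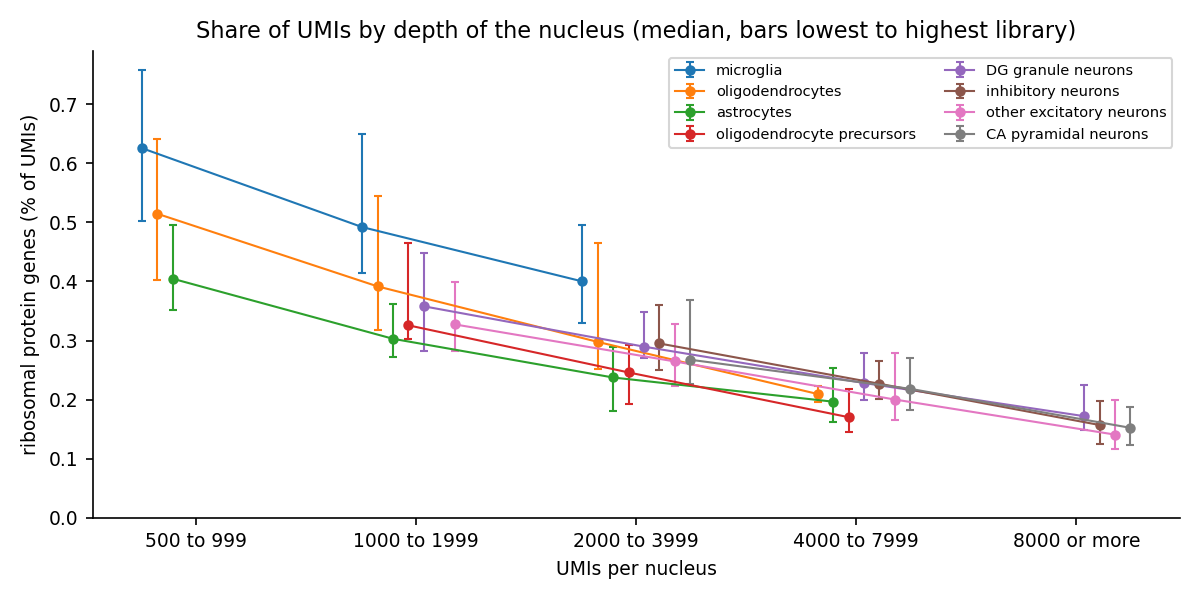
Percentage of UMIs from the 84 genes by UMIs per nucleus and class (points: median over libraries with at least 20 such nuclei, bars: lowest to highest library). All classes decline with depth, and microglia lie highest in each of their 3 depth ranges.

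Free RNA could supply part of these UMIs. The level of other classes' markers in a class was used to estimate an upper bound on it. The estimate takes free RNA to have the make-up of barcodes under 100 UMIs, which was not tested. A higher ribosomal share in free RNA, such as the 4.48% at 250 to under 500 UMIs, would raise the bound. In microglia it rested on as few as 7 marker UMIs in a library (Ch25h+/+ Tau- replicate 4). As medians of 16 libraries, the bound for ribosomal protein UMIs was 20.4% in microglia and 21.7% in CA pyramidal neurons. It was 50.2% in astrocytes, 58.1% in oligodendrocytes and 61.5% in precursors. With that amount taken away, microglia kept a share of 0.343 to 0.511% (median 0.401%). Oligodendrocytes were at 0.176% and the other 6 classes at 0.101 to 0.132%.

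Single genes were compared by their highest and lowest class only, without matching depth, and the same count over all genes was not made. The highest median CPM was in microglia for 74 of the 84 genes, in oligodendrocytes for 6, in astrocytes for 2 (Rpl36a and Rpl3l), in precursors for Rpl13 and in granule neurons for Rpl15. The lowest was in CA pyramidal neurons for 50 genes and in other excitatory neurons for 21. Rps9, a protein of the small subunit's decoding region, had 81.8 to 164 CPM in microglia (median 125), 2.90 times its next class, oligodendrocytes, and 7.71 times CA pyramidal neurons at 16.2 CPM. Rpl10a, a protein of the large subunit, had 91.0 to 247 CPM in microglia (median 134), 2.82 times its next class. Rpl36al and Rpl12 (1.95 times each) and Rpl7l1 (1.93 times) were the next by this ratio in microglia. Rpl3l in astrocytes had the highest of any gene and class (3.57 times), but its counts were too low to be tested in any class. For Rps9 and Rpl10a the lowest library of microglia lay above the highest library of every other class.

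In microglia the excess was as low as 1.003 times for Rpl28, 1.01 for Rps2 and 1.03 for Rpl26. Exceptions to the microglial maximum were small for Rps21 (1.01 times the next class) and Rpl15 (1.09), and larger for Rps27 (1.36 times, in oligodendrocytes). Rpl26, singled out because a genotype comparison called it, was uneven among neurons: its median was 47.4 CPM in CA pyramidal neurons, against 18.5 CPM in other excitatory and 19.4 CPM in inhibitory neurons.

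The tau effect (Tau+ minus Tau-) and the effect of Ch25h loss (Ch25h-/- minus Ch25h+/+) were tested on counts summed per library in 8 classes, with 76 to 83 of the 84 genes passing the filter on low counts. Over all nuclei the share of ribosomal protein UMIs differed little: 0.205 ± 0.0115% in Ch25h+/+ Tau+, 0.212 ± 0.0233% in Ch25h+/+ Tau-, 0.190 ± 0.00848% in Ch25h-/- Tau+ and 0.202 ± 0.0279% in Ch25h-/- Tau- (mean ± SD, n = 4). The groups overlapped. Without Ch25h+/+ Tau- replicate 3, which had the highest share (0.246%), the tau difference in Ch25h+/+ changed from -0.00687 to 0.00454 percentage points. The share over all nuclei also depends on the mix of classes, which differed between libraries. Oligodendrocytes were 18.4 to 24.6% of nuclei in Ch25h-/- Tau+, and 16.8, 13.7, 6.29 and 6.95% in Ch25h-/- Tau-. In Ch25h+/+ they were 15.1, 21.4, 17.5 and 20.2% in Tau+ and 19.0, 16.5, 12.3 and 14.6% in Tau-. The part of this mix in the shares was not tested.

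**Figure D4:**
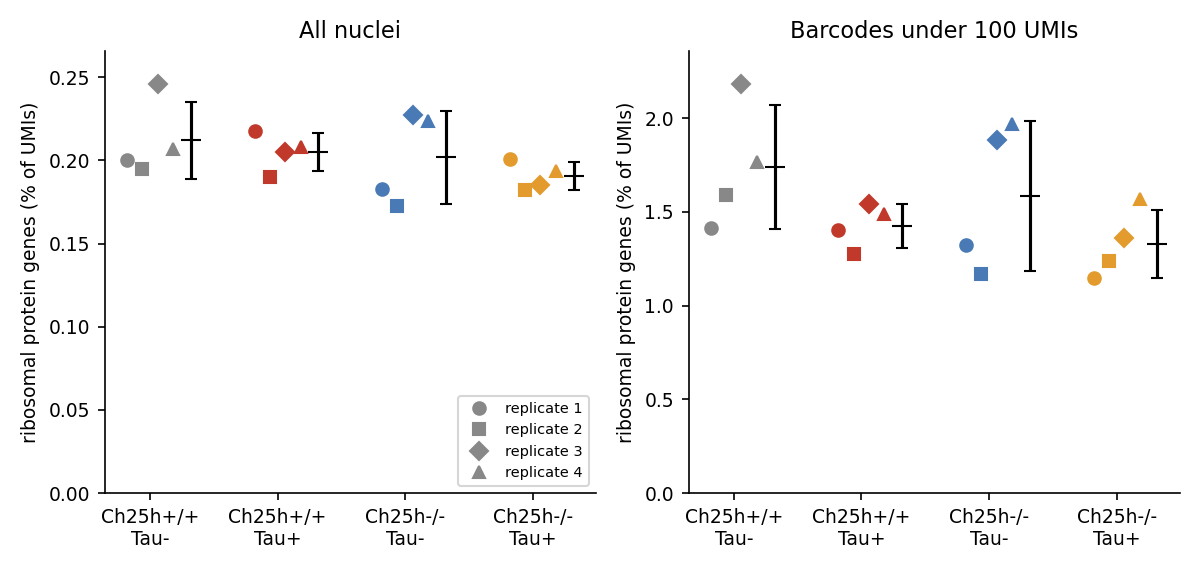
Percentage of UMIs from the 84 genes in all nuclei (left) and in barcodes under 100 UMIs (right), 1 point per library with its replicate as the symbol, and mean ± SD of 4 libraries. Ch25h+/+ Tau- replicate 3 is the highest library in both (0.246% and 2.19%).

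In Ch25h+/+ mice, Rps10 in astrocytes was the only member called for tau among 649 gene and class pairs, against 0.285% of all pairs and 0.601% of astrocyte genes. DESeq2 called 4 pairs (0.222% of all pairs in that fit). A fit by edgeR with a term for replicates 1 and 2 against 3 and 4 called 8 (0.689% of all pairs), while replicates 1 and 2 alone gave 0 (0.649% of all pairs). Rps10 is a small subunit protein near the mRNA entry site, encoded at chr17:27630418-27636669 on the minus strand. In astrocytes it had 27.8, 26.8, 26.5 and 25.2 CPM in the Tau+ libraries and 33.2, 39.2, 59.7 and 49.9 CPM in the Tau- libraries. All Tau+ libraries were below all Tau- libraries, and the highest was Tau- replicate 3, the library with the most mitochondrial UMIs. Rps10 fell by 0.86 on the log2 scale (SE 0.17, edgeR's quasi-likelihood test, adjusted p = 0.0213). The call was lost without any 1 of 5 libraries: Ch25h+/+ Tau+ replicates 1, 2 and 4 and Ch25h+/+ Tau- replicates 3 and 4 (adjusted p up to 0.101 over the 16 leave-outs), while the log2 difference stayed between -0.97 and -0.71. In replicates 1 and 2 alone Rps10 was not called (-0.51, adjusted p = 0.304), and in replicates 3 and 4 alone it was (-1.13, adjusted p = 0.0396). The level in low barcodes also differed in this direction, by -0.49 on the log2 scale. With the estimated bound of free RNA subtracted, Rps10 was called in astrocytes (-1.30, edgeR's adjusted p = 0.0427). The size of this difference depends on the bound. In astrocytes the bound was 33.7 to 63.5% of ribosomal protein UMIs over the 16 libraries.

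Below the threshold, more members were lower than higher in Tau+. At an unadjusted p under 0.05, 144 of 649 pairs (22.2%) were lower and 8 were higher, where 3.34% of all pairs were lower. In astrocytes 38 of 82 members were lower at this level (5.69% of all astrocyte genes), in oligodendrocytes 32 of 82 (3.35%) and in granule neurons 30 of 82 (3.27%). The median log2 difference of the members was -0.35 in astrocytes, -0.30 in oligodendrocytes and -0.25 in granule neurons, and between -0.19 and -0.10 in the other 5 classes, with medians of all genes of -0.00455 to 0.000886. Without Ch25h+/+ Tau- replicate 3, 73 of 653 pairs (11.2%) were lower at this level, where 2.59% of all pairs of that fit were, and the 3 medians were -0.29, -0.20 and -0.14. In replicates 1 and 2 alone the medians were -0.22, -0.16 and -0.04, and in replicates 3 and 4 alone -0.49, -0.45 and -0.44. This split of the libraries was seen in earlier results of these data and is given by no label. Depth also differed. Median UMIs per nucleus were 2257.5, 2776.5, 2434 and 2886 in Tau+ astrocytes and 2175.5, 2007, 2063 and 2155.5 in Tau- astrocytes. In oligodendrocytes they were 1503, 1896, 1597 and 1904 against 1396, 1280, 1353.5 and 1394. In granule neurons they were 5159.5, 7089, 6023 and 6502 against 5554.5, 4663, 4634 and 5196, and overlapped only through Tau+ replicate 1. The part of depth in these differences, and in that of Rps10, was not tested.

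In the low barcodes, 69 of the 84 genes were lower in Tau+ by group mean, with a median log2 difference of -0.31. The same count over all genes was not made. The members share their libraries, so they are not separate observations. Their share was 1.43 ± 0.117% in Tau+ against 1.74 ± 0.331% in Tau- (n = 4). The Tau- libraries had 1.41, 1.59, 2.19 (replicate 3) and 1.77%, and the Tau+ libraries 1.27 to 1.54%. With the estimated bound of free RNA subtracted, the median was -0.47 in astrocytes, -0.17 in oligodendrocytes and -0.32 in granule neurons. In these fits 17 of 80, 4 of 81 and 18 of 82 members were lower at an unadjusted p under 0.05. Of all genes of the same fits, 5.20, 2.68 and 2.93% were. The values after subtraction depend on the bound here too.

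**Figure D5:**
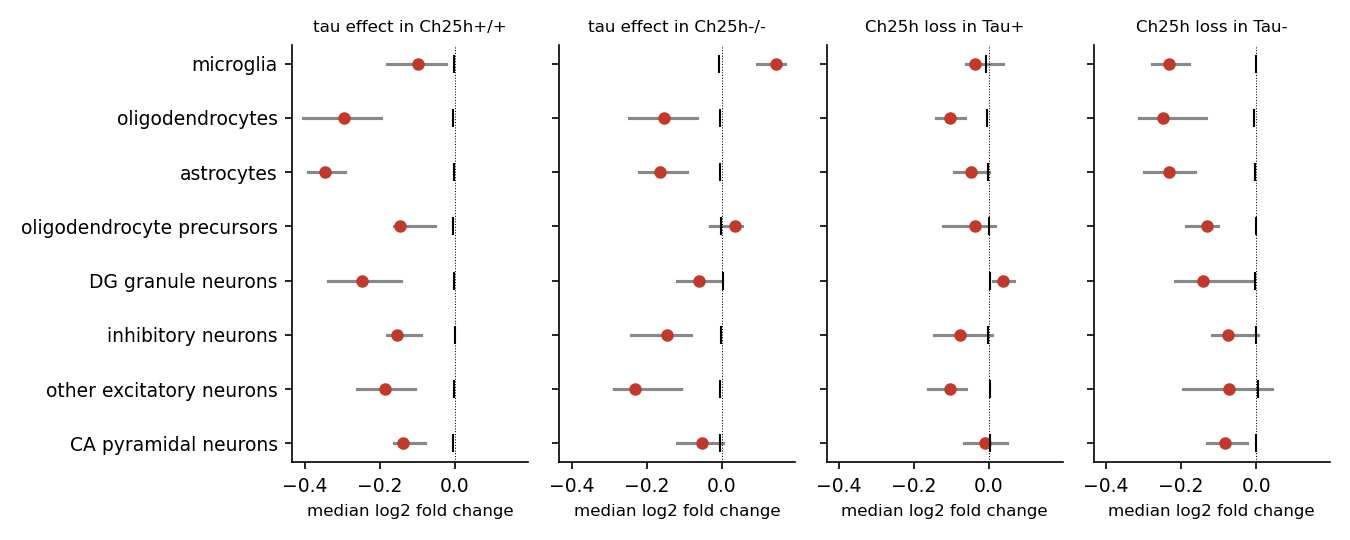
Median log2 fold change of the tested members by class (red points) and of all genes (black ticks) in the 4 comparisons, with grey lines for the range when 1 library is left out. All 8 classes lie below 0 for tau in Ch25h+/+, and microglia lie above 0 (0.15) for tau in Ch25h-/-.

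Of 76 members tested in all 8 classes, 27 were lower in Tau+ in every class, against 5.80% of the 6827 genes so tested. The classes share their libraries, so the same direction in several classes is not a set of separate observations. Rps3a1, a small subunit protein singled out after its values were seen, was lower at an unadjusted p under 0.05 in 8 of 8 classes, with log2 differences of -0.40 in CA pyramidal neurons to -0.86 in oligodendrocytes, though its lowest adjusted p was 0.12. In all nuclei it had 26.9, 18.6, 25.2 and 26.5 CPM in Ch25h+/+ Tau+ and 30.4, 31.0, 39.9 and 31.4 CPM in Ch25h+/+ Tau-, with no overlap. In low barcodes its log2 difference was -0.85. For tau in mice labelled Ch25h-/-, Rps3a1 was lower at this level in 0 of 8 classes (median -0.16), and for Ch25h loss in Tau- in 8 of 8 (median -0.56). Both comparisons in which it was lower contain the group Ch25h+/+ Tau-. Rpl3, which lines the peptidyl transferase centre, had log2 differences of -0.68 in astrocytes (adjusted p = 0.0703) and -0.78 in oligodendrocytes (adjusted p = 0.29), and -0.64 in low barcodes.

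Rpl29, a large subunit protein also singled out after its values were seen, had higher values in Tau+ in 7 of 7 classes tested in both genotypes, with median log2 differences of 0.65 in Ch25h+/+ and 0.90 in Ch25h-/-. It was higher at an unadjusted p under 0.05 in 4 and 3 classes, and was called in none (lowest adjusted p 0.317 and 0.36). In all nuclei Rpl29 had 13.7, 20.5, 6.06 and 13.1 CPM in Ch25h+/+ Tau+ and 6.37, 5.01, 12.8 and 4.99 CPM in Ch25h+/+ Tau-. It had 12.4, 18.2, 17.5 and 18.03 CPM in Ch25h-/- Tau+ and 4.76, 4.36, 13.0 and 13.1 CPM in Ch25h-/- Tau-. The Tau+ and Tau- libraries overlapped in both genotypes. In low barcodes the log2 differences of Rpl29 were 0.82 and 0.99.

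In mice labelled Ch25h-/-, Rpl26 in CA pyramidal neurons was the only member called for tau among 649 pairs, against 0.197% of all pairs and 0.189% of genes in that class. Rpl26, a large subunit protein near the exit of the peptide tunnel, is encoded at chr11:68901583-68906989 on the plus strand. It had 56.3, 61.4, 61.7 and 55.9 CPM in Tau+ and 43.7, 40.9, 39.8 and 46.4 CPM in Tau-. Every Tau+ library was above every Tau- library, and above the 8 libraries labelled Ch25h+/+ (40.6 to 53.3 CPM). Rpl26 rose by 0.50 on the log2 scale (SE 0.09, edgeR's quasi-likelihood test, adjusted p = 0.0369).

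In the other 7 classes Rpl26 was not called, with log2 differences above 0 in 3 (0.08 in granule neurons, 0.20 in microglia and 0.24 in precursors) and below 0 in 4. In astrocytes its log2 difference was -0.61 (adjusted p = 0.172), in other excitatory neurons -0.35 (adjusted p = 0.85) and in low barcodes -0.17. In the CA neurons of Ch25h+/+ mice it was 0.04 (SE 0.09), and the interaction, 0.46 (SE 0.13), was not called (adjusted p = 0.791). The call was lost without any 1 of 7 libraries (adjusted p up to 0.181), when doublets were kept (adjusted p = 0.0569), in replicates 1 and 2 alone (0.49, adjusted p = 0.21) and in replicates 3 and 4 alone (0.51, adjusted p = 0.12). Over the leave-outs its log2 difference was 0.45 to 0.54, and over the other settings 0.46 to 0.57.

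In mice labelled Ch25h-/-, 58 of 649 pairs (8.94%) were lower in Tau+ at an unadjusted p under 0.05 and 10 were higher, where 3.70% of all pairs were lower. Class medians ran from -0.23 in other excitatory neurons to 0.15 in microglia. In the low barcodes 81 of 84 genes were lower in Tau+ by group mean (median -0.25). This count too has none over all genes beside it, and the members share their libraries. Their share was 1.33 ± 0.181% in Tau+ against 1.59 ± 0.400% in Tau- (n = 4). Of the Tau- libraries, replicates 3 and 4 had 1.88 and 1.97% and replicates 1 and 2 had 1.32 and 1.17%. With the estimated bound of free RNA subtracted, the medians of all 8 classes were above 0. The bound was higher in Tau- in some classes. In precursors it was 63.1 to 100% of ribosomal protein UMIs in Tau- and 39.4 to 52.0% in Tau+. In inhibitory neurons it was 26.9 to 69.7% in Tau- and 22.7 to 26.9% in Tau+. The signs after subtraction therefore depend on the bound.

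In microglia, Rpl10a is described for its high level there, after its values were seen. It had 191 ± 37.5 CPM in Ch25h+/+ Tau+ and 124 ± 25.6 in Ch25h+/+ Tau-, and 172 ± 54.0 CPM in Ch25h-/- Tau+ and 111 ± 14.0 in Ch25h-/- Tau- (mean ± SD, n = 4). Its log2 differences were 0.59 (SE 0.19, adjusted p = 0.108) and 0.62 (SE 0.19, adjusted p = 0.105), and neither was called. It passed in both genotypes in the edgeR fit without the filter on low counts, where adjusted p was 0.00836 and 0.00727. DESeq2 called Rpl10a in neither genotype.

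Ch25h loss called no member. Among Tau+ mice edgeR called 0 of 649 pairs, where 0.00669% of all pairs were called, and DESeq2 also called 0. At an unadjusted p under 0.05, 16 pairs (2.47%) were lower and 2 were higher, where 1.68% of all pairs were lower. The 3 pairs of lowest p were Rpl31 in inhibitory neurons (-0.63, SE 0.15, adjusted p = 0.719), Rpl26 in CA pyramidal neurons (0.33, SE 0.09, adjusted p = 0.9999) and Rpl7 in precursors (-0.94, SE 0.32, adjusted p = 0.99998). Rpl31 in inhibitory neurons had 9.62, 8.63, 7.39 and 8.08 CPM in libraries labelled Ch25h-/- and 13.7, 11.6, 13.9 and 14.1 CPM in Ch25h+/+. These values did not overlap, but the pair was picked for its low p. How many other pairs separate in this way was not counted.

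Among Tau- mice edgeR and DESeq2 called 0 of 649 pairs for Ch25h loss, where edgeR called 0.00287% of all pairs. At an unadjusted p under 0.05, 62 pairs (9.55%) were lower in the libraries labelled Ch25h-/- and 0 were higher, where 1.79% of all pairs were lower. Without Ch25h+/+ Tau- replicate 3, 30 of 653 pairs (4.59%) were lower, where 1.48% of all pairs of that fit were. The 3 pairs of lowest p were Rpsa in oligodendrocytes (-0.51, SE 0.15), Rpl7 in granule neurons (-0.58, SE 0.16) and Rpl7l1 in oligodendrocytes (-0.59, SE 0.19), with adjusted p of 0.99966 to 1. The group Ch25h+/+ Tau- enters this comparison and the tau effect in Ch25h+/+, so their values are not independent.

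The difference between the tau effects of the 2 genotypes called 0 of 649 pairs by edgeR and by DESeq2, where 0% of all pairs were called. At an unadjusted p under 0.05, 16 pairs (2.47%) were higher and 4 (0.616%) lower, where 2.01% and 2.06% of all pairs were. The lowest p values belonged to Rpl31 in inhibitory neurons (-0.89, SE 0.20), Rpl26 in CA pyramidal neurons and Rpl3 in astrocytes (0.73, SE 0.24). That the tau effect on a member differs between genotypes was therefore not detected.

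Calls were few among other translation genes, as among all genes. Of all pairs, 0.285% were called for tau in Ch25h+/+ and 0.197% in Ch25h-/-. In the other comparisons 0 to 0.00669% were. At these shares, lists of this size would hold few calls. Of 556 pairs of mitochondrial ribosomal proteins, 116 of TOP translation factors, 75 of regulators of TOP translation, 65 of small nucleolar RNA hosts and 22 of ribosomal proteins with other names, 0 were called in any comparison. Among 248 pairs of ribosome biogenesis factors, Rrp1b, a nucleolar protein, fell by 1.03 on the log2 scale in microglia for tau in Ch25h+/+ (SE 0.25, adjusted p = 0.0273) and by 1.01 in Ch25h-/- (SE 0.23, adjusted p = 0.0254). For tau in Ch25h+/+, the median log2 difference was -0.16 for ribosomal proteins with other names, -0.05 for TOP translation factors and 0.15 for the noncoding snoRNA hosts. It was -0.06 for mitochondrial ribosomal proteins, 0.003 for biogenesis factors and 0.04 for regulators of TOP translation. For tau in Ch25h-/- the medians in the same order were -0.15, -0.10, 0.20, 0.04, 0.06 and 0.05.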

How the data were processed

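Nuclei were captured in droplets and their RNA tagged at the 3′ end (10x Genomics chemistry, per the labels). The deposited UMI counts cover all barcodes; Cell Ranger 4 is named in the file headers, Cell Ranger 3.1.0 and mm10 in the submitters' processing notes, and whether intronic reads were counted is not given in the sources used here. Pseudogene copies can take reads of these genes (5 pseudogene rows held 960 UMIs). The members and lists were chosen with earlier results of these data known.

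Nuclei had at least 500 UMIs, 300 genes and at most 5% mitochondrial UMIs. Scrublet's highest 0.8% per 1000 nuclei (11045 of 147873) were removed as doublets. Leiden clusters (scanpy 1.11.5, resolution 1) took a class name from at least 3 markers at 2-fold, and 27 of 58 stayed unnamed. Replicates were numbered in accession order and pair nothing. P-values measure only the spread between libraries, which may be technical, since the labels do not say that each is a separate animal.

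Counts per library and class were tested with edgeR 4.0.16 (quasi-likelihood, TMM, filterByExpr) over all genes, two-sided, adjusted by Benjamini-Hochberg per class and comparison, and called at an adjusted p under 0.05. The test was run on simulated counts for astrocytes and CA pyramidal neurons, with genes drawn independently. That check does not cover members that vary together or the split of replicates. DESeq2 1.42.0 was an alternative. Named were up to 5 called members in each direction per class and comparison (or the 3 of lowest p). Also named were most of the 5 highest and 5 lowest ratios, and a fixed list of canonical members. Summed shares were given without a test. The values of some members are not reported here.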

Additional observations from a re-analysis of the deposited data

Results flagged for a closer look

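Of 48 groups of 4 libraries examined for a library far from the others, 2 held one, where chance flags about 1 in 20 groups. Both concern Ch25h-/- Tau+ replicate 1. The share of ribosomal protein UMIs in oligodendrocytes was 0.351% in this library and 0.313 to 0.315% in the other 3. In oligodendrocyte precursors it was 0.259% against 0.215 to 0.223%.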

How the results depend on the processing

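For tau in Ch25h+/+, where 1 member was called, DESeq2 called 4 (0.222% of all pairs in that fit), no filter on low counts 6 (0.352%), at most 1% mitochondrial UMIs 2 (0.268%), a term for replicates 1 and 2 against 3 and 4 called 8 (0.689%), replicates 1 and 2 alone 0 (0.649%) and replicates 3 and 4 alone 3 (0.0649%). Leaving out 1 library gave 0 to 3 (0.0349 to 0.702% of all pairs). For tau in Ch25h-/-, where 1 was called, no filter gave 2 (0.292%), doublets kept 0 (0.176%) and the replicate term 2 (0.460%). Replicates 1 and 2 alone gave 3 (0.541%), which were Rpl29 in granule neurons and microglia and Rpl10a in microglia, not Rpl26. Leaving out 1 library there gave 0 to 1 (0.0566 to 0.544%). The difference in share of all nuclei for tau in Ch25h-/-, -0.0113 percentage points, became 0.0124 with free RNA subtracted, 0.0136 in replicates 1 and 2 and -0.0363 in replicates 3 and 4; the cause was not tested. The split of replicates was seen in these data and is in no label. No paired analysis was possible because the labels give no replicate numbers. Counts per gene and library limit single members: Rps10 in astrocytes rested on 40 to 130 UMIs.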
